A study of Rattus norvegicus with 56 samples.

Results

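The repressive histone mark H3K27me3 was compared between the side of the haemorrhage (ipsilateral) and the opposite side (contralateral) in brain tissue of rats labelled 13 months old. The members are all peaks of the 2 H3K27me3 lists of that age, 117866 ipsilateral and 51805 contralateral, together 169671 of the 1619269 peaks in the series. They were treated as single peaks and as domains, in which peaks of 1 side lying within 1 kb of each other were joined.

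Chromatin immunoprecipitation followed by sequencing (ChIP-seq) was used in the series to map histone marks after intracerebral haemorrhage, bleeding within the brain, in adult and old rats. All rats of both groups used here carry the haemorrhage label and the agent label "none", and the antibody is given as H3K27Me3 from Millipore. Each group has 2 ChIP libraries and 2 input libraries, which the authors pooled before peak calling. The same tissue was profiled for H3K4me3 and H3K9ac at 13 months and for H3K27me3 at the older age, 21 months in the sample labels and 22 in the series text. The labels do not name the brain region, how the haemorrhage was made or the time since it, and whether separate animals gave the libraries pooled in a group is not stated.

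H3K27me3 is laid down by Polycomb repressive complex 2 and is known for broad domains over silent developmental genes, among which are transcription factors of other lineages that brain cells keep off. A peak caller in narrow mode breaks such domains into many short peaks, so peaks and joined domains describe the same mark at different scales. H3K4me3 is the mark of promoters, and places where both marks are found are called bivalent when they lie on the same chromatin. In bulk tissue an overlap of the marks may also come from different cells, and fewer cells with the mark cannot be told apart from less of the mark per cell.

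The ipsilateral list rests on more sequence. After duplicates were removed, 71635071 ipsilateral and 35621686 contralateral ChIP tags were kept, a ratio of 2.01, whereas before removal the ratio was 1.25. Duplicates made up 23% of ipsilateral and 52% of contralateral ChIP tags. The tags kept from input numbered 129495299 and 80040152. The part of depth in the differences between the sides was not tested. At 21 months the order of tags and peaks was not the same: 117740131 ipsilateral tags kept gave 300668 peaks and 73142126 contralateral tags gave 367061. Since each side is 1 pooled list, there is no spread between replicates and no test of the sides. The 95% intervals below cover counting error over peaks only, and neighbouring peaks are not independent.

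The ipsilateral list held 2.28 times as many peaks as the contralateral list and covered 2.36 times as many bases. Its peaks covered 56.8 Mb, 2.02% of the span of the chromosomes, and the contralateral peaks covered 24.1 Mb, 0.854%. The typical peak had about the same length on both sides, with a median of 321 bp ipsilaterally and 310 bp contralaterally. The longest ipsilateral peak measured 24272 bp and the longest contralateral peak 12813 bp. Per 1000000 ChIP tags kept there were 1645 ipsilateral and 1454 contralateral peaks.

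Most ipsilateral peaks had no contralateral counterpart, and about as many contralateral peaks had one as had none. Of the ipsilateral peaks, 23197 overlapped a contralateral peak by at least 1 bp, 19.7% (95% Wilson interval 19.5% to 19.9%), and 94669 did not (80.3%). Of the contralateral peaks, 26330 overlapped an ipsilateral peak, 50.8% (50.4% to 51.3%), and 25475 did not (49.2%). The bases under peaks of both sides came to 14.0 Mb, 24.6% of the ipsilateral and 58.0% of the contralateral bases. The ipsilateral list was then limited to its 51805 peaks of highest −log10 q, as many as the whole contralateral list holds. The shares moved towards each other, to 31.9% of ipsilateral and 38.8% of contralateral peaks, and 68.1% and 61.2% had no counterpart. When the ipsilateral list was limited to about 24.1 Mb of its strongest peaks, the bases of the whole contralateral list, the order of the sides turned round. Shared were 48.4% of 24999 ipsilateral and 30.4% of 51805 contralateral peaks, and 46.6% of the bases of each side. In both settings only ipsilateral peaks were removed, which can only lower the contralateral share. With a −log10 q of at least 3 in both lists the shares were 20.8% and 50.5%. The side with the larger share of peaks of its own thus differed between these ways of matching the lists.

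Strong and long peaks were shared more often than weak and short peaks. In the strongest decile of each list by −log10 q, 70.3% of ipsilateral and 95.6% of contralateral peaks had a counterpart, and in the weakest decile 8.53% and 33.9%. Of peaks of 1200 bp or longer, 88.2% of ipsilateral and 99.4% of contralateral ones were shared, against 8.31% and 33.3% of those under 300 bp. The median length was 575 bp for shared and 298 bp for side-only ipsilateral peaks, and 405 bp and 264 bp for contralateral ones. No side-only peak of either list reached 3 kb, a length that 1190 shared ipsilateral and 408 shared contralateral peaks had. Ipsilateral-only peaks of 1 kb or longer numbered 1494, 1.58% of them, and contralateral-only peaks of that length numbered 47, 0.184%.

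At the very top the lists met almost fully, but not peak for peak. Of the 1000 strongest peaks of each list, 1 ipsilateral and 0 contralateral ones lacked any counterpart in the other list. Against the other side's strongest 1000 peaks alone the shares were 67.6% and 76.5%. Among the 5000 strongest, 374 ipsilateral and 203 contralateral peaks had no counterpart at any strength. The 1000 strongest ipsilateral peaks were longer, with a median of 3654 bp against 2115 bp, and covered 4.64 Mb against 2.48 Mb.

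**Figure D1:**
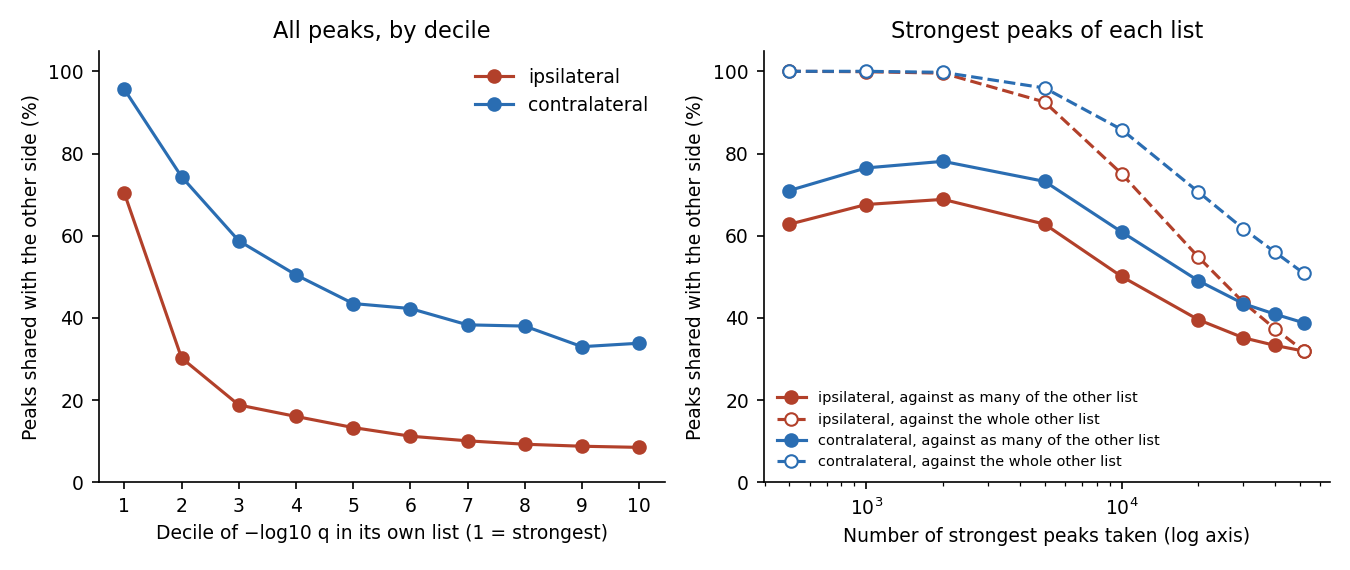
Left: percentage of 13-month H3K27me3 peaks that overlap a peak of the other side, by decile of −log10 q within each list, falling from 70.3% to 8.53% ipsilaterally and from 95.6% to 33.9% contralaterally. Right: the same percentage for the strongest peaks of each list (log axis), against as many peaks of the other list (filled points) and against the whole other list (open points), which stands near 100% up to 2000 peaks.

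Where both sides had a peak, contralateral peaks lay inside ipsilateral ones more often than the reverse. Of the shared contralateral peaks 42.6% lay wholly inside an ipsilateral peak, and of the shared ipsilateral peaks 10.97% lay wholly inside a contralateral one. The median share of a peak's own bases under the other side's peaks was 94.9% for contralateral and 61.1% for ipsilateral peaks. A single ipsilateral peak overlapped 3 or more contralateral peaks in 808 cases, and 1 of 16764 bp overlapped 12. The reverse occurred in 43 cases, with at most 3 ipsilateral peaks under 1 contralateral peak. From the summit of a shared ipsilateral peak to the nearest contralateral summit the median distance was 116 bp, and the reverse was 144 bp. These peaks were chosen for overlap, which by itself keeps such distances short.

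Side-only peaks were mostly far from shared ones. The median distance to the nearest shared peak was 20646 bp for ipsilateral-only peaks (95% interval of the median 20219 to 21047) and 20768 bp for contralateral-only peaks (20016 to 21505), intervals that overlap. Within 1 kb of a shared peak lay 12.6% of ipsilateral-only and 9.87% of contralateral-only peaks, and beyond 100 kb lay 24.95% and 24.76%. Shared peaks lay near each other, with a median of 1316 bp to the next shared peak ipsilaterally and 1041 bp contralaterally. With equal numbers of peaks, contralateral-only peaks were the more distant, at 27333 bp (26457 to 28230) against 21723 bp (20943 to 22529). With equal bases they lay at 36956 bp against 19026 bp. Both settings cut only the ipsilateral list, which leaves fewer shared contralateral peaks to be near, 20108 and 15743 in place of 26330. With a −log10 q of at least 3 in both lists the order was the other way, 22442 bp for contralateral-only and 24751 bp for ipsilateral-only peaks. A side-only peak was not necessarily far from any peak of the other side: 33.6% of contralateral-only peaks lay within 1 kb of an ipsilateral peak, and 18.4% of ipsilateral-only peaks within 1 kb of a contralateral one.

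Joining within each list gave 80121 ipsilateral and 39093 contralateral domains. Their median lengths were 342 bp (340 to 344) and 319 bp (317 to 322), since 75.7% and 81.7% of domains were 1 peak. The sides stood further apart in long domains. Ipsilateral domains of 20 kb or longer numbered 142 and contralateral ones 40, and of 50 kb or longer 8 and 3. The longest ipsilateral domain was 133015 bp and the longest contralateral one 89050 bp. With equal numbers of peaks there were still 112 ipsilateral domains of 20 kb or longer against 40, and with equal bases 96 against 40. Domains of 5 kb or longer held 25.6% of ipsilateral and 19.6% of contralateral bases.

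Nearly all long domains contained at least 1 peak of the other side. Such a meeting is likelier for a longer domain through its length alone, and the shares below were not corrected for length. All 142 ipsilateral domains of 20 kb or longer, and all 195 contralateral domains of 10 kb or longer, contained a peak of the other side. From 5 to 10 kb the shares were 94.5% of 1419 ipsilateral and 99.3% of 427 contralateral domains. Below 1 kb they were 8.97% of 61969 and 35.1% of 31842. Domains under 1 kb held 36.9% of ipsilateral and 44.4% of contralateral bases.

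**Figure D2:**
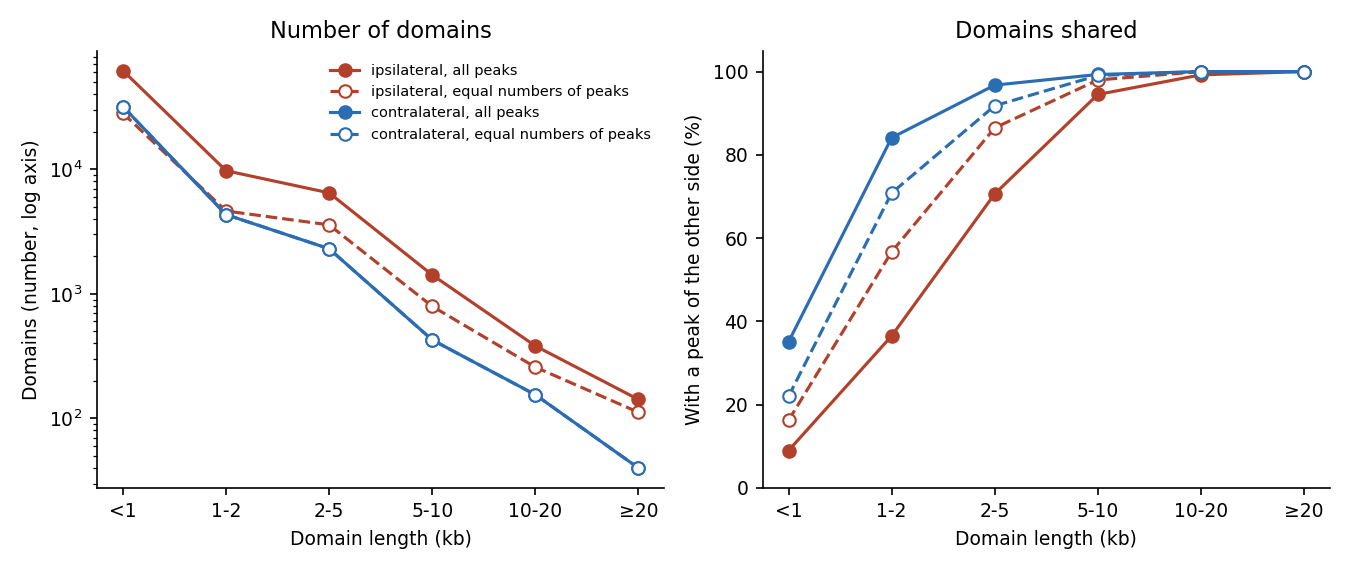
Left: number of domains (log axis) by domain length for each side, with all peaks (filled, solid) and with equal numbers of peaks (open, dashed; the contralateral list is the same in both), where 142 or 112 ipsilateral and 40 contralateral domains reach 20 kb. Right: percentage of those domains with a peak of the other side, which reaches 100% at 20 kb on both sides.

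Joining the peaks of both lists together gave 19488 domains marked on both sides, 58945 on the ipsilateral side alone and 15596 on the contralateral side alone. The 2-sided domains had a median length of 1726 bp, and those of 1 side 302 bp and 262 bp. They took in 23982 of the ipsilateral-only peaks (25.3%) and 9002 of the contralateral-only peaks (35.3%), so that roughly this share of side-only peaks is part of a domain that the other side also has. No ipsilateral-only domain reached 20 kb and 3 reached 10 kb, the longest of 14222 bp. The longest contralateral-only domain was 7398 bp.

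Within the long 2-sided domains the ipsilateral mark was the more continuous. In all 161 of at least 20 kb ipsilateral peaks covered more bases than contralateral peaks, with a median of 84.8% of the domain against 55.4%. Contralateral peaks were not fewer there, with a median of 15 per domain against 13 ipsilateral ones. The ipsilateral side covered more in 122 of 124 such domains with equal numbers of peaks (88.0% against 61.8%). With equal bases it did so in 109 of 109 (88.2% against 65.7%). Domains were chosen here by joined length, to which ipsilateral peaks add more: alone, 142 ipsilateral and 40 contralateral domains reached 20 kb. That choice favours the ipsilateral side, so the direction of these counts was partly set in advance. In domains under 1 kb the ipsilateral side covered more in 56.0% and from 2 to 5 kb in 87.2%. In the 2241 2-sided domains of 5 kb or longer, 7.92 Mb were under ipsilateral peaks alone and 1.01 Mb under contralateral peaks alone. Of the ipsilateral bases 4.73 Mb lay between the outermost contralateral peaks, filling gaps, and 3.19 Mb (40.3%) extended beyond them. The wider cover went with more ChIP tags kept (2.01 times), and the part of those tags in it was not tested.

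The 12 largest domains, by the smaller of the bases covered on the 2 sides, show this gap filling one by one. Positions are as the authors' lists give them, on a genome build not given in the sources used here, and no gene was assigned. The largest, chr10:84106678-84239769, had 37 ipsilateral peaks over 121 kb and 74 contralateral peaks over 101 kb. It formed 1 ipsilateral domain and 9 contralateral domains. A shorter one on the same chromosome, chr10:83997177-84050442, had 47.3 kb under ipsilateral and 33.9 kb under contralateral peaks. On chromosome 7 neighbouring domains lay at chr7:144505863-144591821 and chr7:144598154-144661222. The first had 15 ipsilateral peaks over 82.6 kb and 47 contralateral peaks over 65.8 kb, and the second had 61.2 kb and 51.3 kb. Another adjacent pair lay at chr3:61578209-61626957 and chr3:61628011-61690028, with 47.0 kb against 38.6 kb and 56.5 kb against 41.5 kb. At chr9:84036991-84110861 the ipsilateral peaks covered 65.4 kb as 1 domain and the contralateral ones 42.9 kb as 11. All 12 had more ipsilateral than contralateral bases and more contralateral than ipsilateral peaks, and 11 of them were 1 unbroken ipsilateral domain. At 21 months ipsilateral peaks again covered more bases than contralateral peaks in all 12, 125 kb against 119 kb in the largest. There the contralateral list is the longer of the pair, while the ipsilateral side again had more ChIP tags kept (1.61 times).

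The domains of 20 kb or longer that differed most between the sides all favoured the ipsilateral side. At chr8:77636666-77669838 ipsilateral peaks covered 84.8% and contralateral peaks 31.1%, 53.7 percentage points apart. At chr2:11857759-11879143 the shares were 67.1% and 14.4%, and H3K4me3 peaks covered 13.0 kb of it ipsilaterally and 13.1 kb contralaterally. At chr2:121151878-121184539 the H3K27me3 shares were 77.3% and 25%, and H3K4me3 peaks covered 11.4 kb and 10.5 kb. At chr1:185963184-185999432 the shares were 57.7% and 9.01%, with no H3K4me3 or H3K9ac peak on either side. No domain of that length favoured the contralateral side, and the closest to it was chr3:7489868-7511166, with 77.9% and 76.2%. These domains too were chosen by joined length, to which ipsilateral peaks add more, so their direction was partly set by the choice.

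**Figure D3:**
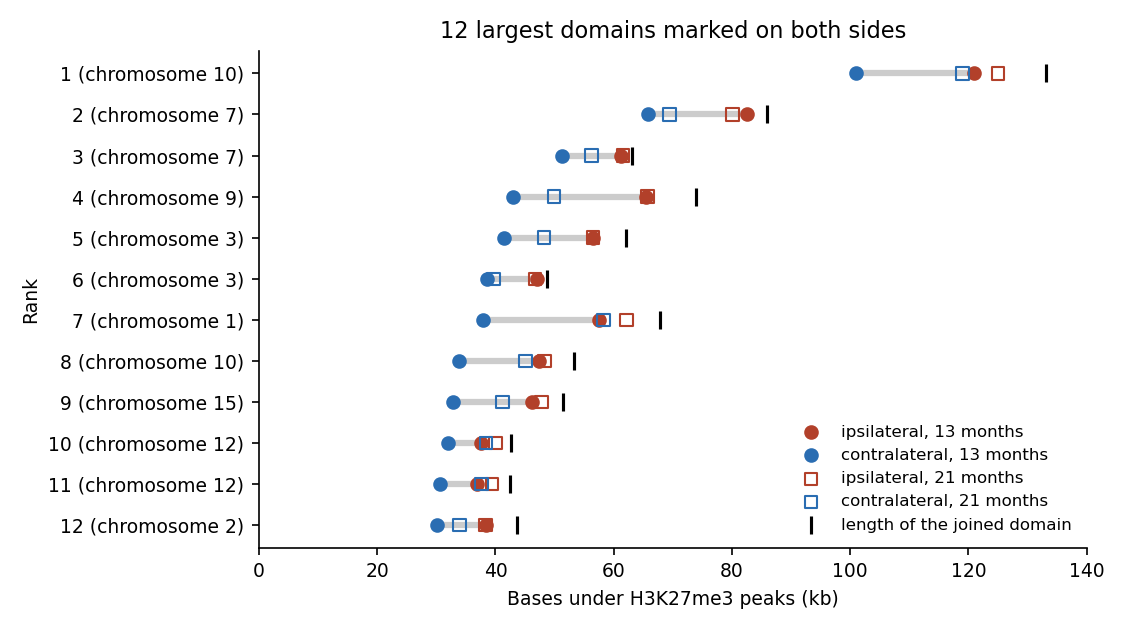
Bases (kb) under H3K27me3 peaks in the 12 largest domains marked on both sides, by rank, for each side at 13 months (filled circles) and 21 months (open squares), with the length of the domain (bar). At 13 months the ipsilateral point lies to the right of the contralateral one in all 12, at 121 kb against 101 kb in the largest, and the same holds for the squares of 21 months.

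Domains of 1 side alone were small, and the largest ones differed between the sides in what else lay there. The largest ipsilateral-only domain, chr10:72121879-72134151, held 8 peaks over 8.0 kb, and the next, chr2:80771610-80784441, held 12 peaks over 7.96 kb. Each of the 8 largest ipsilateral-only domains had H3K27me3 peaks on both sides at 21 months, and 7 of them had no H3K4me3 peak on either side at 13 months. The largest contralateral-only domains were chr1:181072454-181079851, with 9 peaks over 4.49 kb, and chr1:181166796-181172929, with 7 peaks over 4.07 kb. A further one of the 8, chr1:180800924-180806338 with 2.66 kb, lay close by. All of these chromosome 1 domains held H3K4me3 peaks of both sides and no H3K27me3 peak in the ipsilateral list at 21 months. Their top peaks had a fold of 3.57 to 5.22 over local background with a −log10 q of 21.6 to 23.8. Another 3 of the 8 (chr5:171666210-171669386, chr5:172020791-172023728 and chr6:136691350-136694016) had 21-month peaks on both sides. Of these, chr5:172020791-172023728 ends just over 1 kb before chr5:172024906-172053154, a domain marked on both sides, so that only the joining limit keeps them apart.

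The 5 strongest single peaks of each side alone are described next. Of the 5 ipsilateral-only peaks of highest −log10 q, 4 lay within 1 kb of a contralateral peak, and all 5 had 21-month peaks on both sides. The first of them, chr20:3083631-3084125, had a fold of 7.13. Of the 5 contralateral-only peaks of highest −log10 q none lay within 1 kb of an ipsilateral peak, all 5 had a contralateral peak at 21 months and 1 had an ipsilateral one. The first, chr2:550987-551345, had a fold of 15.8, lay 114 kb from the nearest ipsilateral peak and carried H3K4me3 on both sides. In the wider set of side-only peaks with a fold of 5 or more in their own list, which is not corrected for depth between lists, the 280 ipsilateral-only peaks had a median length of 612 bp and the 744 contralateral-only peaks 294 bp. Within 1 kb of a peak of the other side lay 42.9% of the former and 33.1% of the latter, a smaller gap than among the 5 strongest, and over all side-only peaks the order was the reverse (18.4% and 33.6%). Of these ipsilateral-only peaks 87.9% had an ipsilateral and 66.8% a contralateral 21-month peak. Of these contralateral-only peaks 51.3% had an ipsilateral and 59.1% a contralateral one.

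H3K4me3 lay far more often at shared than at side-only H3K27me3 peaks. An H3K4me3 peak of the same side overlapped 6.07% of all ipsilateral and 11.9% of all contralateral H3K27me3 peaks. Among shared peaks these shares were 21.7% ipsilaterally (95% interval 21.2% to 22.3%) and 19.1% contralaterally (18.6% to 19.6%). Among side-only peaks they were 2.24% (2.14% to 2.33%) and 4.58% (4.33% to 4.84%). The H3K4me3 lists of the sides were of similar size, 33661 ipsilateral and 33574 contralateral peaks, with 25% duplicates each.

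Within classes of peak length, shared peaks again overlapped H3K4me3 more often than side-only peaks. The longest class is open-ended: shared ipsilateral peaks reached 24272 bp and ipsilateral-only peaks 2879 bp. Per Mb of peaks in that class, 171 shared and 32.6 side-only ipsilateral peaks overlapped H3K4me3. Of ipsilateral peaks of 1200 bp or longer, 44.3% of shared and 4.85% of side-only ones overlapped H3K4me3, and of those under 300 bp 9.93% and 1.69%. Of contralateral peaks from 600 to under 1200 bp, 32.5% of shared and 16.4% of side-only ones did. Contralateral-only peaks exceeded ipsilateral-only peaks of the same length class: 16.4% (13.8% to 19.3%) against 4.15% (3.73% to 4.61%) from 600 to under 1200 bp, and 3.11% against 1.69% under 300 bp. Only 17 contralateral-only peaks reached 1200 bp.

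**Figure D4:**
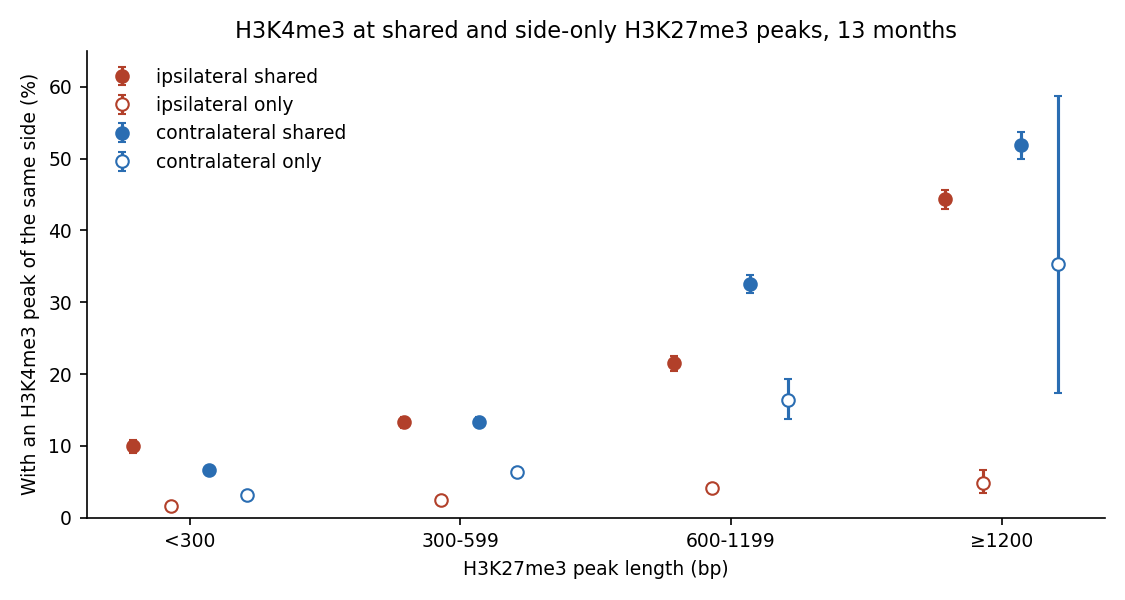
Percentage of 13-month H3K27me3 peaks with an H3K4me3 peak of the same side, by peak length (bp), for shared (filled) and side-only (open) peaks of each side, with 95% Wilson intervals. Filled points lie above open points of the same side in every length class, with overlapping intervals only for the contralateral side at 1200 bp and longer, and contralateral-only points lie above ipsilateral-only ones.

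Most side-only H3K27me3 peaks with H3K4me3 of their own side also overlapped H3K4me3 of the other side. Of contralateral-only H3K27me3 peaks 4.84% overlapped H3K4me3 of the ipsilateral side, where the H3K27me3 peak was missing, against 4.58% for the same side, and 3.76% overlapped both. For ipsilateral-only peaks the shares were 2.17%, 2.24% and 1.48%. Side-only H3K27me3 peaks within 1 kb of a shared peak carried H3K4me3 more often than those 5 to 20 kb away, 5.71% against 1.30% ipsilaterally and 6.94% against 2.93% contralaterally. Beyond 100 kb the contralateral share was 6.51% and the ipsilateral share 2.22%.

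Seen from H3K4me3, 21259 regions had that mark on both sides. Of these 4402 (20.7%) had H3K27me3 on both sides as well, 893 on the ipsilateral side alone, 753 on the contralateral side alone and 15211 (71.6%) on neither. With all peaks, the counts of the 2 single sides were near each other in these regions, but not where H3K4me3 itself was on 1 side. Of 11771 regions with H3K4me3 on the ipsilateral side alone, 731 had H3K27me3 only ipsilaterally and 250 only contralaterally, and of 10507 with H3K4me3 on the contralateral side alone, 676 and 222. Over all 43537 H3K4me3 regions the counts were 2300 and 1225. In the regions with H3K4me3 on both sides the order turned round with equal numbers of peaks, to 538 ipsilateral-only and 1176 contralateral-only regions. With equal bases they were 304 and 1563. Both settings cut only the ipsilateral list, which can only lower the first count and raise the second, so the direction was set in advance. At a −log10 q of 3 or more in both lists the counts were 824 and 807. Over all H3K4me3 regions the counts with equal numbers were 1209 and 1761. Where H3K4me3 was on the ipsilateral side alone, they were 360 and 307 with equal numbers and 202 and 364 with equal bases. Where it was on the contralateral side alone, they were 311 and 278, and 158 and 326. At a −log10 q of 3 or more in both lists they stayed apart in these 1-sided regions, 570 and 210, and 515 and 177. Among regions with H3K4me3 on both sides, those without H3K27me3 had a median length of 1236 bp, those with it on both sides 1114 bp, those with it ipsilaterally alone 748 bp and those with it contralaterally alone 1055 bp.

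Most long H3K27me3 domains held H3K4me3 peaks. Of the ipsilateral domains of 20 kb or longer 79.6% contained an ipsilateral H3K4me3 peak, with 2.23 such peaks per domain, and of the contralateral ones 67.5%, with 1.55. From 2 to 5 kb the shares were 26.2% and 43.5%, and under 1 kb 2.89% and 7.77%. Under 1 kb there were 0.0293 and 0.0789 H3K4me3 peaks per domain. A longer domain can meet more peaks through its length alone, and these shares were not corrected for length. In the largest domain, on chromosome 10, H3K4me3 peaks covered 0.925 kb ipsilaterally and none contralaterally, and at chr12:42471765-42514295, the 11th, 3.65 kb and 3.07 kb.

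H3K9ac, a mark of active promoters and enhancers, gave a similar picture. An H3K9ac peak of the same side overlapped 20.1% of shared and 2.19% of side-only ipsilateral H3K27me3 peaks, and 23.0% of shared and 7.27% of side-only contralateral ones. Against the H3K9ac of the other side the shares were 25.3% and 3.08% for ipsilateral peaks, and 17.9% and 5.03% for contralateral ones. The contralateral H3K9ac list is the longer, with 93770 peaks against 69557, and its duplicates were 55% against 82%, so that these shares are not matched between the sides.

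The 21-month lists come from other libraries and were not used to define the classes. They hold 300668 ipsilateral and 367061 contralateral H3K27me3 peaks. Shared 13-month peaks nearly all recurred: 94.3% of the ipsilateral ones had an ipsilateral and 92.5% a contralateral 21-month peak, and 89.99% had both. Of the ipsilateral-only peaks 57.6% recurred in the ipsilateral list and 49.7% in the contralateral list, although the latter is longer. Of the contralateral-only peaks 61.7% recurred in the ipsilateral and 68.8% in the contralateral list. Peaks of 1 side at 13 months thus overlapped the same side at 21 months more often than the other side.

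That order held at the other list sizes tried. When both 21-month lists were limited to 51805 peaks, the ipsilateral-only peaks recurred at 22.0% in the ipsilateral and 16.1% in the contralateral list, and the contralateral-only peaks at 23.9% and 30.9%. With 300668 peaks each, the shares were 57.6% and 45.6% for ipsilateral-only and 61.7% and 65.04% for contralateral-only peaks. For shared peaks the ipsilateral 21-month list gave the higher share in both classes, 94.6% against 91.7% for contralateral shared peaks. Some side-only peaks had a 21-month peak on the opposite side alone. Of the ipsilateral-only peaks, 8041 (8.49%) had one in the contralateral list alone and 15564 (16.4%) in the ipsilateral list alone. For contralateral-only peaks the counts were 2013 (7.90%) in the ipsilateral list alone and 3817 (15.0%) in the contralateral list alone. The overlap that lists of this size would give by position alone was not estimated. No 21-month peak was found for 33.9% of ipsilateral-only and 23.3% of contralateral-only peaks.

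**Figure D5:**
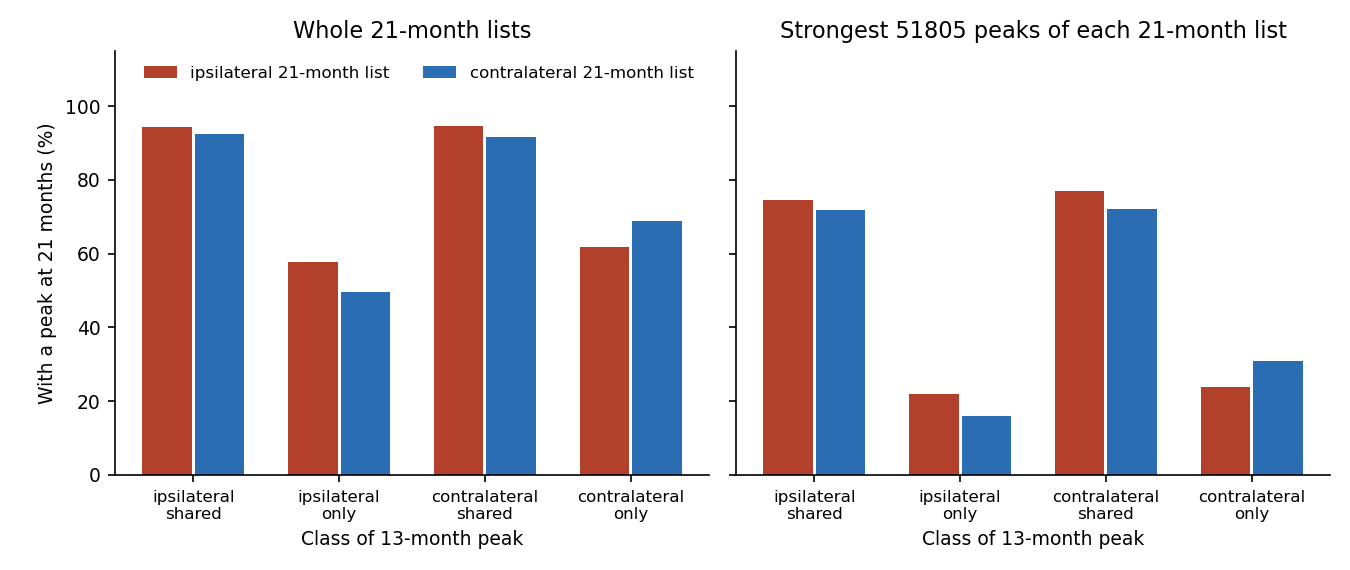
Percentage of 13-month H3K27me3 peaks of each class with an H3K27me3 peak at 21 months on the ipsilateral or contralateral side, against the whole 21-month lists (left) and against the strongest 51805 peaks of each (right). Shared peaks stand at 91.7% to 94.6% on the left, ipsilateral-only peaks are higher in the ipsilateral list and contralateral-only peaks in the contralateral list in both panels.

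The ipsilateral surplus was not even over the chromosomes. On the 20 autosomes the ratio of ipsilateral to contralateral peaks ran from 1.48 on chromosome 12 to 2.87 on chromosome 18. It was lower on chromosomes where contralateral peaks were dense: chromosome 12 had 41.0 contralateral peaks per Mb and chromosome 18 had 13.2. Across the autosomes Pearson's r between contralateral peak density and the ratio was −0.88 and Spearman's rho −0.886, as a description only, since the density is also the denominator of the ratio. With the density of ipsilateral H3K4me3 peaks, which is not part of the ratio, r was −0.762 and rho −0.835. With equal numbers of peaks chromosome 12 had 0.760 and chromosome 18 had 1.19 ipsilateral peaks per contralateral peak. On the X chromosome both lists were sparse, with 4.27 ipsilateral and 2.78 contralateral peaks per Mb against at least 31.8 and 11.3 on any autosome, and H3K4me3 was less depleted, with 5.03 ipsilateral peaks per Mb against at least 9.84.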

How the data were processed

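The members, lists and settings were chosen with earlier results of these data known. Cutadapt, Bowtie2 and HOMER are named, with no version, per the submitters' processing notes. Per the file headers, the authors ran MACS 2.1.1.20160309 on pooled libraries for narrow peaks with a q-value limit of 0.05, a genome size of 2.7 Gb and 1 tag per position. The deposited fold enrichment, a ratio to local background, and the −log10 q-value were used only to describe, rank or filter peaks within a list.

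Overlaps (at least 1 bp), domains (gaps up to 1 kb), Wilson intervals and order-statistic intervals of medians came from Python 3.11.15 (numpy 2.4.6; scipy 1.17.1; pandas 2.3.3; matplotlib 3.10.9), and the interval functions were tested on simulated data. Equal numbers were taken by −log10 q. The named regions, by a fixed rule, are the 12 domains with the highest smaller covered length of the 2 sides, the 8 largest domains of 1 side alone, the 5 side-only peaks of highest −log10 q per side, and the 5 domains of at least 20 kb that differ most in covered share in each direction. Other regions and counts were chosen after their values were seen, as was the matching by bases. The build of the coordinates is not named in the labels or headers. Peaks on 15 chromosomes run past the last gene of the GRCr8 table supplied, so no gene was assigned and no sequence printed.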

Additional observations from a re-analysis of the deposited data

Results flagged for a closer look

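Over the whole lists, the side contrast in peaks, bases and domains pointed opposite ways at the 2 ages. This was not tested, since each group is 1 pooled list. In the 12 largest 2-sided domains it did not, and ipsilateral peaks covered more bases at both ages. The ratio of ipsilateral to contralateral peaks was 2.28 at 13 months and 0.819 at 21 months, that of bases 2.36 and 0.821, and that of domains 2.05 and 0.760. The ratio of median peak lengths was 1.04 and 0.958, and that of median domain lengths 1.07 and 1.0. For the number of domains of 20 kb or longer the ratio was 3.55 at 13 months (142 against 40) and 0.925 at 21 months (429 against 464). The ratio of ChIP tags kept was above 1 at both ages, 2.01 and 1.61.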

How the results depend on the processing

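No paired analysis was possible because the libraries of a group were pooled before peak calling, so leaving out a library was not possible either. Of 48 alternative values, 3 moved by less than their counting interval and 45 by more. The 3 include the median contralateral domain length with equal numbers and with equal bases, where the contralateral list is unchanged and could not move. The intervals of shared bases count every base (24.55% to 24.58% ipsilaterally), so they are too narrow to weigh a move. Values are given ipsilateral, then contralateral. Shared peaks were 31.9% and 38.8% with equal numbers, 12.3% and 42.9% with an overlap of at least 50% of the peak's length, and 48.4% and 30.4% with equal bases. At a −log10 q of at least 3 they were 20.8% ipsilaterally. Shared bases were 35.9% and 51.8% with equal numbers, 27.1% and 60.6% at a −log10 q of 3, and 46.6% on each side with equal bases. Median domain length was 363 and 335 bp at a −log10 q of 3, 401 and 343 bp with gaps up to 3 kb joined, and 329 and 313 bp with 500 bp. Ipsilaterally it was 415 bp with equal numbers and 602 bp with equal bases. The median distance of side-only to shared peaks was 21723 and 27333 bp with equal numbers, 24751 and 22442 bp at a −log10 q of 3, 33875 and 22270 bp with the 50% overlap, and 19026 and 36956 bp with equal bases. Shared peaks with H3K4me3 were 26.8% and 22.4% with equal numbers, 26.2% and 22.6% at a −log10 q of 3, 12.1% and 10.6% with an H3K4me3 fold of 5 or more, and 32.4% and 25.8% with equal bases. For side-only peaks these were 3.06% and 5.30%, 2.59% and 5.72%, 1.04% and 2.59%, and 4.11% and 5.90%. Under each of these settings shared peaks carried H3K4me3 more often than side-only peaks of their side. The order of the sides in shared peaks turned round with equal bases, where by construction fewer ipsilateral peaks are used. In distance the sides had no clear order with all peaks, where their intervals overlapped. Contralateral-only peaks were the farther with equal numbers and equal bases, where only the ipsilateral list was cut. Ipsilateral-only peaks were the farther at a −log10 q of 3 and with the 50% overlap, where the cause was not tested. No depth correction of the lists was made.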
